A study of Mus musculus with 8 samples.

Results

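The genes described here carry out 2 linked steps of antigen presentation by MHC class I: cutting proteins into peptides by the immunoproteasome, and carrying and loading those peptides onto class I molecules in the endoplasmic reticulum. They are 10 genes of the 20145 gene symbols on the array: Tap1, Tap2, Tapbp, Psmb8, Psmb9, Psmb10, Psme1, B2m, H2-D1 and Pdia3. Each was found through the RefSeq accession of its probe, and each had 1 probe. The genes were chosen by their log2 signals in hydroxyurea against saline embryos, so the differences between those groups are given as a description, without a test.

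The RNA was total RNA of whole CD-1 embryos, from an outbred mouse stock, taken on gestational day 9. The dams had been injected intraperitoneally 3 h earlier, either with hydroxyurea at 400 mg/kg (4 samples) or with saline (4 samples). Hydroxyurea blocks ribonucleotide reductase, which supplies the deoxyribonucleotides for DNA synthesis, and the series is about p53 signalling in the embryo. Each sample was hybridised to a 1-colour Agilent array. The labels name independent experiments but not which samples share one, nor whether a sample held 1 embryo, litter or dam, so the errors measure only the spread between samples. Both groups were split evenly over 2 slides, which were scanned at different resolutions.

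In nucleated cells the proteasome degrades proteins to peptides. Interferon induces the catalytic subunits encoded by Psmb8, Psmb9 and Psmb10, which take the place of constitutive subunits and favour peptide ends that class I molecules bind. The TAP1 and TAP2 proteins form the pump that moves peptides into the endoplasmic reticulum, where tapasin (Tapbp) and ERp57 (Pdia3) help an empty heavy chain, held by beta-2-microglobulin (B2m), to take one up. Early embryos are known for low class I expression, and Tap1 is a known transcriptional target of p53.

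All values below are log2 signals relative to the 75th percentile of the same array, so a value of -2 lies 2 doublings below that percentile. Markers of the embryo proper were read first, and all 12 of the 12 listed were measured. Their summed signal, in units of the array's 75th percentile, was 862 to 1495 in hydroxyurea embryos and 947 to 1321 in saline embryos. Hbb-bh1 was the brightest of them. In the limma test over all features 0 of them passed (1 at an unadjusted p of 0.05). That test compares the groups and cannot tell which tissue was sampled. Between 48.7% and 62.3% of the spots of an array were well above background, 0 spots were saturated, and the number of arrays limits the precision. Because RNA came from whole embryos, fewer cells of a type and less RNA per cell cannot be told apart.

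The members with the largest differences were Tap1, Tap2 and Psmb9, all higher after hydroxyurea. With Psmb8 they make up 4 genes that follow each other on chromosome 17. With the scanner's own background subtraction, Tap1 was at least 6.93-fold higher, Psmb9 2.99-fold and Tap2 2.52-fold. With normexp, another background correction, run on median spot signals with an offset of 50, the folds were 2.28, 1.49 and 1.36. The offset is added to every signal before the log, which by arithmetic makes the folds of dim probes smaller. The other 6 measured members, among them the heavy chain, B2m and the remaining proteasome genes, differed by between -0.45 and 0.33 on the log2 scale. Psmb8 was not well above background on any array.

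**Figure D1:**
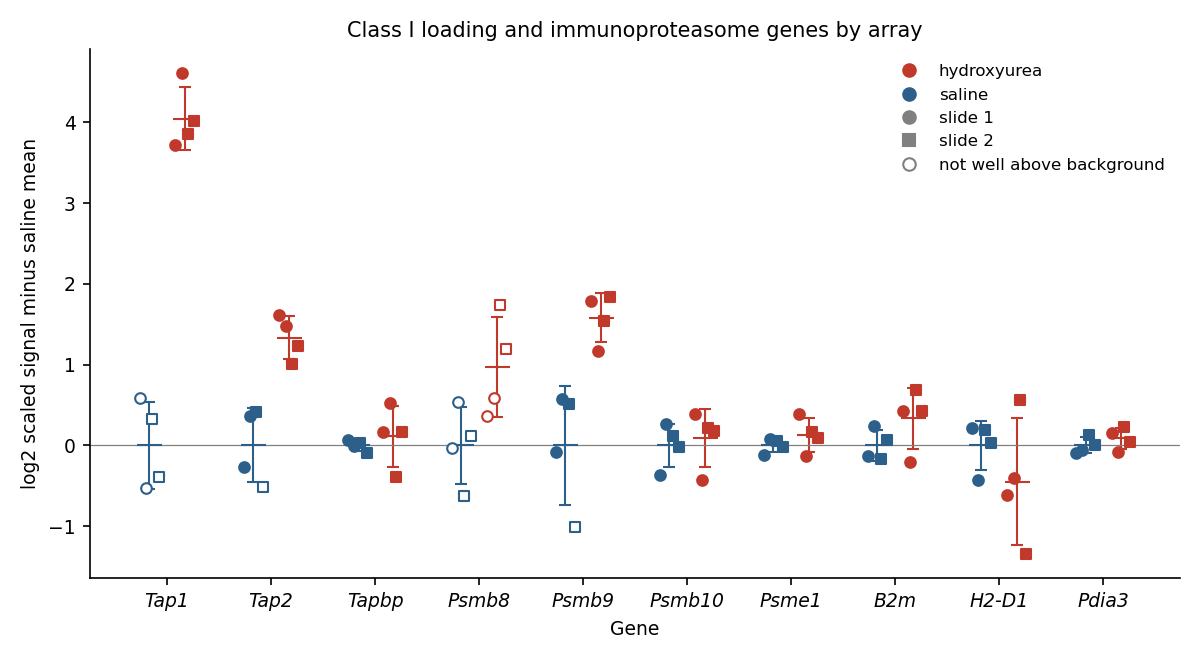
Log2 signal of each of the 10 genes on each array, minus the mean of the 4 saline arrays for that gene (y axis), with the group mean and SD as bars. Circles are slide 1, squares slide 2, and open symbols arrays on which the probe was not well above background. The hydroxyurea arrays lie above all saline arrays for Tap1, Tap2 and Psmb9, and the groups overlap for the other genes.

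Of the 9 members that passed the filter on dim probes, 3 were called by limma at an adjusted p of 0.05, all of them higher, and 6 were not. Of all 23121 features tested, 6.18% were called, 2.78% as higher and 3.4% as lower, and of the named genes among them 5.67%. The groups did not overlap for these 3 members, nor for 15.5% of all features in either direction and 7.85% with hydroxyurea higher. Because this contrast chose the members, nothing is read from these counts. The median difference was 0.13 over the 9 members and 0.04 over all features.

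Tap1 (NM_013683) encodes the first of the paired chains of the peptide pump. Its signals were -2.53, -1.64, -2.39 and -2.23 in hydroxyurea 1 to 4, and -5.65, -6.77, -5.92 and -6.63 in saline 1 to 4. The groups lay far apart, with hydroxyurea 2 highest and saline 2 lowest. Its probe was spotted 10 times on each array, which shows the error within an array; Psme1 was spotted as often, B2m 2 times and the others once. In saline 1, 4 of 10 spots were well above background, and in saline 2, 3 and 4 none of the 7 to 10 spots used was. On the hydroxyurea arrays 9 or 10 spots were used, and all were well above background except 1 spot on hydroxyurea 3. The SD between spots of one array was between 0.09 and 0.68 in the hydroxyurea arrays and between 0.11 and 0.86 in the saline arrays.

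The Tap1 group means were -2.20 ± 0.39 (SD, n = 4) and -6.24 ± 0.54 (SD, n = 4), a difference of 4.05 (SE 0.29). Since the saline signal was not well above background, the fold is given as a bound, at least 6.93-fold. The bound holds for the scanner's background subtraction alone, where no offset was added. With normexp and its offset of 50 the difference was 1.19, or 2.28-fold. For the bound, each saline array was given the dimmest signal of any probe well above background there, or the Tap1 signal where that was higher. It carries no sampling error.

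Tap2 (NM_011530), the second chain of the pump, had signals of -2.99, -3.13, -3.59 and -3.37 in hydroxyurea 1 to 4 and of -4.86, -4.24, -4.19 and -5.11 in saline 1 to 4. All 4 hydroxyurea arrays stood above all saline arrays, the closest pair being hydroxyurea 3 and saline 3. The difference was 1.33 (SE 0.24), or 2.52-fold, and saline 4 was the 1 array of 8 on which the probe was not well above background. The authors' deposited table, which holds 1346 probes, lists Tap1 and Tap2 and no other member. The group means in the authors' deposited table lay 4.04 apart for Tap1 and 1.325 apart for Tap2.

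The loading helpers had small differences. Tapbp (NM_001025313), whose product tapasin bridges the pump and the heavy chain, had signals of -0.92, -0.57, -1.48 and -0.92 in hydroxyurea 1 to 4 and of -1.02, -1.09, -1.05 and -1.18 in saline 1 to 4. The saline arrays were tight and the hydroxyurea arrays wide, with hydroxyurea 3 below every saline array and the other 3 above. The difference was 0.11 (SE 0.20), but -0.08 on slide 2 and -0.02 without hydroxyurea 2. Pdia3 (NM_007952), the gene of the oxidoreductase ERp57, differed by 0.09 (SE 0.14), with means of 4.42 ± 0.13 and 4.33 ± 0.10 (SD, n = 4 each).

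Among the catalytic subunits of the immunoproteasome, Psmb9 (NM_013585), also called Lmp2, had the largest measured difference. Its signals were -2.40, -3.02, -2.65 and -2.35 in hydroxyurea 1 to 4 and -4.27, -3.61, -3.68 and -5.19 in saline 1 to 4. The groups did not overlap, and saline 4, on which the probe was not well above background, was lowest. The difference was 1.58 (SE 0.34), or 2.99-fold. It was 1.25 without saline 4 and 1.77 without saline 2, the lowest and highest values with 1 array left out.

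Psmb8 (NM_010724), or Lmp7, gave -5.76, -5.53, -4.37 and -4.92 in hydroxyurea 1 to 4 and -6.15, -5.58, -6.74 and -5.99 in saline 1 to 4. No array of either group was well above background for this probe, so no fold is given and the gene was not tested. Psmb10 (NM_013640), or Mecl-1, was well above background on all arrays, with 4.00, 3.19, 3.83 and 3.80 in hydroxyurea 1 to 4 and 3.25, 3.87, 3.73 and 3.60 in saline 1 to 4. The groups overlapped and the difference was 0.09 (SE 0.21), or -0.03 without saline 1. Psme1 (NM_011189), a subunit gene of the PA28 cap that opens the proteasome gate, differed by 0.13 (SE 0.15), with means of 3.77 ± 0.21 and 3.64 ± 0.09 (SD, n = 4 each). Its probe was also spotted 10 times, and its SD between spots of one array was between 0.04 and 0.16.

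The 2 chains of the class I molecule differed in sign. B2m (NM_009735), the light chain that every class I heavy chain needs, had signals of 3.45, 2.82, 3.71 and 3.46 in hydroxyurea 1 to 4 and of 2.90, 3.26, 2.85 and 3.09 in saline 1 to 4. The hydroxyurea arrays stood above all saline arrays, except hydroxyurea 2, which stood below all of them. The difference was 0.33 (SE 0.21), being 0.05 on slide 1 and 0.61 on slide 2, and 0.51 without hydroxyurea 2. H2-D1 (NM_010380), a classical heavy chain gene, had signals of 1.28, 1.49, 2.46 and 0.55 in hydroxyurea 1 to 4 and of 2.11, 1.46, 2.08 and 1.93 in saline 1 to 4. The hydroxyurea arrays spread over a wider range than the saline arrays, from the lowest to the highest of all 8, and the difference was -0.45 (SE 0.36). It was -0.79 without hydroxyurea 3 and -0.15 without hydroxyurea 4.

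Some of the other class I heavy chains varied with H2-D1 and some did not. H2-K1, the other classical heavy chain gene, was also highest in hydroxyurea 3 (3.68) and lowest in hydroxyurea 4 (2.12), and its difference between the groups was -0.11 (SE 0.33, adjusted p = 0.87 with limma), and 0.01 with median centring. Over 8 arrays that share their scaling, the deviations of H2-D1 from the group means had a Pearson r of 0.993 with those of H2-Q7, 0.95 with H2-K1, 0.922 with H2-Q6 and 0.815 with H2-T23. The r was -0.152 with H2-Q4 and -0.48 with H2-M3. The nonclassical genes H2-Q4, H2-Q6, H2-Q7 and H2-T23 are named after their values were seen. Many class I genes are near copies of each other, and their probes may not separate them.

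Markers of tissues around the embryo varied between arrays, each in its own way. Prl8a2, a prolactin family gene of the decidua, the maternal lining around the embryo, had signals of -4.45, 2.40, 6.03 and -6.84 in hydroxyurea 1 to 4, the same order as those of H2-D1. In saline 1 to 4 Prl8a2 stood at -7.51, -3.18, -2.03 and -5.65, an order that H2-D1 did not follow. The Prl8a2 probe was well above background on 5 of 8 arrays, so the order among its lowest values is uncertain. Prl3d1, a prolactin family gene of trophoblast giant cells, was also high in hydroxyurea 2 and 3, at 2.40 and 1.43, against -3.29 and -3.91 in hydroxyurea 1 and 4. Pgr, the progesterone receptor gene and another decidual marker, did not follow Prl8a2 among the hydroxyurea arrays, with -3.49, -4.77, -3.99 and -3.97 in hydroxyurea 1 to 4. In saline 1 to 4 Pgr stood at -6.24, -4.81, -5.54 and -5.035, below every hydroxyurea array. The Pgr difference was 1.35 (SE 0.35, adjusted p = 0.054 with limma), and its probe was well above background on 4 of 8 arrays.

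Of 4 decidual markers 3 were measured, and Prl3c1 was not. All 3 had a difference above 0 (median 1.35), the lowest being 0.25 (SE 0.22) for Cryab. Their summed signal, in units of the array's 75th percentile, was 10.5, 12.6, 73.3 and 6.91 in hydroxyurea 1 to 4 and between 5.22 and 9.34 in saline embryos. The high sum of hydroxyurea 3 was almost all Prl8a2: without that gene the sums were 10.4, 7.36, 7.93 and 6.90 in hydroxyurea 1 to 4 and between 5.20 and 9.23 in saline embryos. Of 10 leukocyte markers 7 were measured, and the defining genes Ptprc, Cd68 and Lyz2 were not. The leukocyte sum was between 12.1 and 18.6 in hydroxyurea embryos and between 17.9 and 32.8 in saline embryos, with Itgam the brightest gene, but the median difference of the list was 0.02 and 4 of 7 genes had a difference above 0. All 6 yolk sac markers had a difference below 0 (median -0.90), as had the 3 measured of 6 uterine natural killer cell markers (median -0.36). The yolk sac sum was 257 in saline 2 and between 20.2 and 64.2 in the other saline embryos. It was between 17.6 and 87.7 in hydroxyurea embryos. Of 6 trophoblast markers 3 were measured, with a median of 1.31. None of these marker genes passed with limma, 3 did at an unadjusted p of 0.05, and the part of these tissues in the results was not tested. The signals of Tap1, Tap2, Psmb9 and Pgr were higher in every hydroxyurea array than in any saline array. This held for 7.85% of all features. The closest Pgr pair was -4.77 in hydroxyurea 2 and -4.81 in saline 2, with that probe well above background on 4 of 8 arrays. Prl8a2 was low in hydroxyurea 1 and 4 and high in hydroxyurea 2 and 3. The relation of the decidual markers to the members was not tested.

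**Figure D2:**
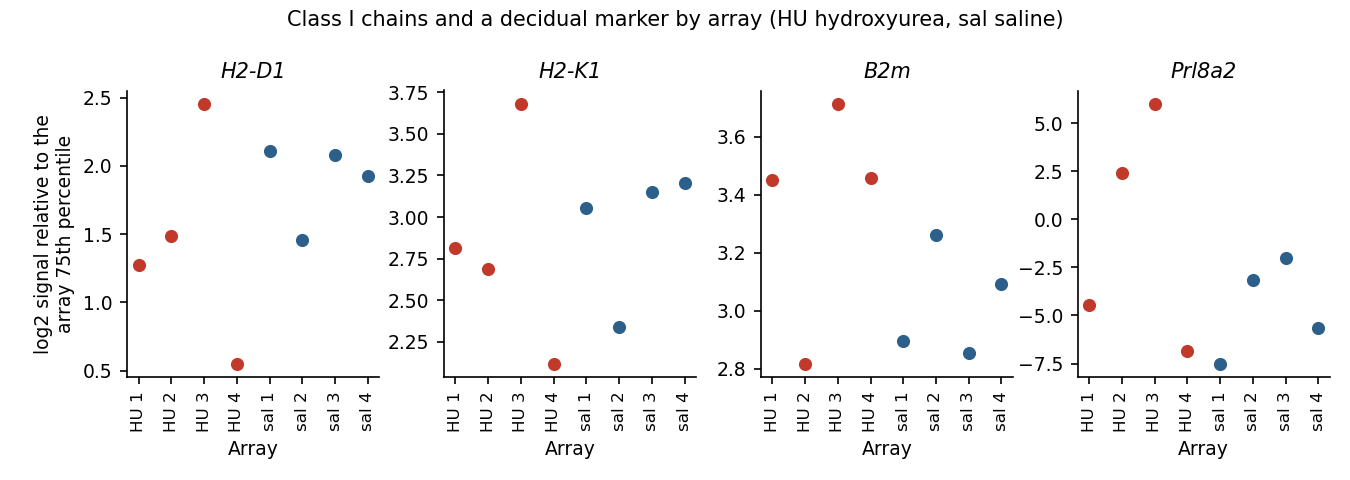
Log2 signal relative to the 75th percentile of the array (y axis, a separate scale for each gene) for H2-D1, H2-K1, B2m and the decidual gene Prl8a2 on the 8 arrays. Red points are hydroxyurea (HU) and blue points saline (sal). H2-D1, H2-K1 and Prl8a2 were highest in hydroxyurea 3 and, among the hydroxyurea arrays, lowest in hydroxyurea 4, and B2m was lowest in hydroxyurea 2.

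Inside the groups the members did not vary as one set. Over the 36 pairs of the 9 measured members, the Pearson r of the deviations from the group means ran from -0.84 (Tapbp and B2m) to 0.91 (Psmb10 and Psme1), with a median of 0.05, each over the 8 arrays. Tap2 and Psmb9 varied together (0.75), and Psmb10, Psme1 and B2m formed a second group (0.79 between Psmb10 and B2m). Tap1 had -0.81 with Psmb10, -0.805 with B2m and -0.685 with Psme1, but 4 of its 8 deviations are saline values that were not well above background. Hydroxyurea 2 was the array on which Tap1 was highest and Psmb10, Psme1 and B2m were lowest among the hydroxyurea arrays. The scaling of an array moves all of its genes at once, and its part in these values was not tested.

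Tap1, Tap2 and Psmb9 were higher on both slides. Tap1 differed by 4.13 on slide 1 and 3.97 on slide 2, Tap2 by 1.49 and 1.17, and Psmb9 by 1.23 and 1.93. A limma test of whether the treatment difference itself differed between the slides called 0 of 23121 features, or 0%, at an adjusted p of 0.05 and 218 at an unadjusted p of 0.05. For the 9 members the difference between the slides lay between -0.40 (Tapbp) and 0.70 (Psmb9, SE 0.72).

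Psmb9 and Tap1 are read in opposite directions from start sites a short distance apart, and the interval between the start sites is shown because both genes were higher. Promoter windows, from 250 bases before to 50 after a gene's start, were taken from RefSeq on GRCm38.p6 for 9 of the 10 genes. The array design uses another build, and no position was converted between them. The interval between the starts lies at chr17:34187331-34187555 on the plus strand, 225 bases from Psmb9 (left) to Tap1 (right), and a GC box is in capitals.
Tap1 and Psmb9: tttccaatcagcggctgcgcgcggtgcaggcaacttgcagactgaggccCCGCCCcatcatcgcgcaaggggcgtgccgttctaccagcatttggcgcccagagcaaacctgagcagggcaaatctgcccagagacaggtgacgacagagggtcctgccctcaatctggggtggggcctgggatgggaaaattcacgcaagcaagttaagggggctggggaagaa

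Motif searches covered both strands of the windows: the ISRE type (GAAA, 2 bases of any kind, GAAA) that interferon regulatory factors bind, the GAS type (TTC, 3 bases of any kind, GAA) of interferon-responsive promoters, the GC box GGGCGG of SP1, the p53 decamer and the kappaB site. In the member windows no match of one motif overlapped a match of another. Stretches before the start are shown for B2m, H2-D1 and Psmb8, the members with a match other than a GC box there, with matches in capitals. They lie at chr2:122147538-122147580, chr17:35262913-35262943 and chr17:34198088-34198116, all on the plus strand.
B2m: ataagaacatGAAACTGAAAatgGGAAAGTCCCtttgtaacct
H2-D1: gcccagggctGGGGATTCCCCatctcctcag
Psmb8: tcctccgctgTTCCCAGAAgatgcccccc

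The B2m stretch holds an ISRE-type match followed by a kappaB match, that of H2-D1 overlapping kappaB matches, and that of Psmb8 a GAS-type match. ISRE-type letters were in 2 of 9 member windows, B2m and, after its start, Psme1, and in 3.44% of all 32851 windows. The kappaB site was in 2 of 9, against 4.51% of all windows, and the GAS type in 1 of 9, against 8.3%. A GC box was in 5 of 9, against 35.7% of all windows, and the match of Tap1 and of Psmb9 is the same one. The p53 decamer was in 0 of 9 member windows and in 8.36% of all windows. A match says only that the letters are there, and a missing match only that they are not in this window.

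The genes that flank the block are class II genes. H2-DMb1, next to Psmb9, encodes a chain of the class II peptide loader and differed by 0.47 (SE 0.36, adjusted p = 0.45 with limma). H2-Ob, next to Tap2, differed by 0.32 (SE 0.20, adjusted p = 0.36 with limma), and H2-Ab1, one gene further, by 0.40 (SE 0.24, adjusted p = 0.32 with limma), its other probe giving 0.48. None of these passed, and H2-DMb2 was not measured. The differences of Tap1, Tap2 and Psmb9 from these neighbours were not tested.

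**Figure D3:**
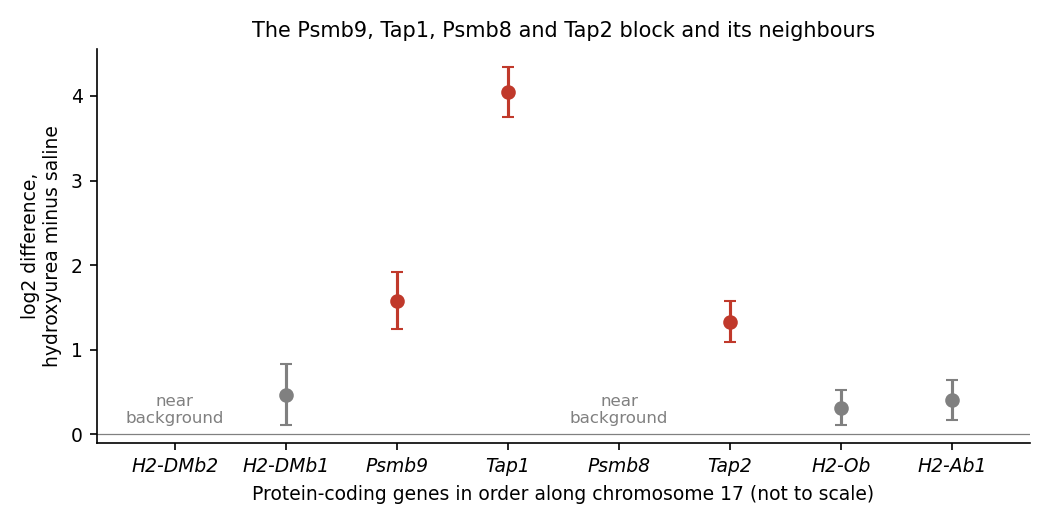
Log2 difference between hydroxyurea and saline embryos (y axis, with the SE of the fit) for protein-coding genes in their order along chromosome 17 (x axis, not to scale). The members Psmb9, Tap1 and Tap2 (red) stood at 1.58, 4.05 and 1.33, and the neighbours (grey) between 0.32 and 0.47; the probes of Psmb8 and H2-DMb2 were near background.

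The wider pathway was read through lists of genes that are no members. These lists were also chosen with earlier results of these data known, so their counts and p-values are not free of that choice. Of 142 listed genes 117 were measured, and of these 4 were higher and 1 lower with limma, 4.27% against 5.67% of all named genes. Their median difference was 0.12, against 0.04 over all features. Without hydroxyurea 2 the count was 14 (11 higher and 3 lower), and it included the 5. Without that array the calls over all 23121 features rose as well, from 1429 to 3739. Leaving out any other array gave 2 (hydroxyurea 1 or 4) or 3 listed genes called, and a slide block gave 3.

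The partners of peptide loading did not pass: 0 of 12 measured genes were called (1 at an unadjusted p of 0.05), with a median of -0.03. Calr and Canx, the lectin chaperones of new heavy chains, differed by -0.06 each (SE 0.15 and 0.17), and Tapbpl, the gene of the second peptide editor TAPBPR, by 0.00 (SE 0.22). Erap1, whose product trims peptides to length in the endoplasmic reticulum, was not measured. Lnpep, an endosomal aminopeptidase gene, stood at 0.42 (adjusted p = 0.24 with limma) and passed without hydroxyurea 2 (0.60, adjusted p = 0.037). Pdia4, a disulfide isomerase gene, stood at -3.49 (SE 1.02, adjusted p = 0.077 with limma). Its signals were 2.31 to 2.63 in saline embryos, but -2.42, 1.99, 0.16 and -3.62 in hydroxyurea 1 to 4. Pdia4 passed with normexp (adjusted p = 0.018), with median centring (0.045) and without hydroxyurea 2 (0.011).

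Of 13 measured heavy chain and related genes limma called 0 (also 0 at an unadjusted p of 0.05), and the median was 0.00, with a range from -0.33 to 0.53. Cd1d1, which presents lipids, had the lowest p (0.53, adjusted p = 0.24 with limma), and its other probe gave 0.68. H2-M3, which presents formylated peptides, stood at 0.28. Both H2-K1 probes were close to 0 (-0.11 and -0.16).

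The rest of the proteasome had no call with limma. Of 14 measured genes of the constitutive core 0 were called (median 0.10), of 21 genes of the regulatory particle 0 (median 0.12), and of 9 activator and assembly genes 0 (median 0.16). At an unadjusted p of 0.05 the counts were 0, 2 and 0. The subunits that the immunosubunits replace had small differences: Psmb6, the counterpart of Psmb9, stood at 0.08 (SE 0.17), Psmb5, the counterpart of Psmb8, at -0.11 (SE 0.19), and Psmb7, the counterpart of Psmb10, at -0.21 (SE 0.14). Psme2, which encodes the partner of the Psme1 product in the cap, stood at -0.01 (SE 0.18). The lowest p among the proteasome genes belonged to Psmd14, a deubiquitinase gene of the lid, at 0.69 (SE 0.20, adjusted p = 0.074 with limma), with all 4 hydroxyurea arrays above all saline arrays. Psmd14 passed with normexp (limma adjusted p = 0.032) and without hydroxyurea 2 (0.05, just under the threshold before rounding). Without that array Psma5, a gene of the core, also passed (0.73, limma adjusted p = 0.02). So did Psmg2, an assembly chaperone gene (0.52, limma adjusted p = 0.05, just under the threshold before rounding). With all arrays these stood at 0.49 (adjusted p = 0.24) and 0.36 (adjusted p = 0.28).

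Among regulators of class I genes 1 of 11 passed, and 5 had an unadjusted p under 0.05, as did 24.8% of all features. Of the 11, 5 had a difference above 0, and the median was -0.01. Trp53 stood at -0.67 (SE 0.24) and Nfya at -0.50 (SE 0.13), neither of them called. Both are named after their values were seen. Irf1, an interferon regulatory factor gene known to act on the Tap1 and Psmb9 promoter, had signals of 1.25, 0.63, 0.78 and 1.10 in hydroxyurea 1 to 4 and of -0.47, -0.30, -0.07 and -0.25 in saline 1 to 4. The groups did not overlap, and Irf1 rose by 1.21 (SE 0.18, adjusted p = 0.0063 with limma, higher in 4 of 4 arrays). With any single array left out it still passed (adjusted p from 0.0047 to 0.029). Nlrc5, the class I transactivator gene, was not measured.

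Interferon ligands, receptors and signalling genes gave 1 call among 13, and it was lower (4 at an unadjusted p of 0.05). Ifnk, an interferon gene of the epidermis, was not well above background on any hydroxyurea array and was on all 4 saline arrays. It was at least 1.68-fold lower (adjusted p = 0.0047 with limma). Its probe passed the filter on dim probes only through the saline arrays, so this p-value is not free of that selection. With normexp and its offset, Ifnk stood at -0.31 and did not pass (adjusted p = 0.35 with limma). This bound too holds for the scanner's background subtraction alone. Interferon response genes had the highest median of the 9 pathway lists, 0.62, and 3 of 16 passed as higher, with 0 lower (11 at an unadjusted p of 0.05). Eif2ak2, the kinase PKR that senses double-stranded RNA, rose by 0.87 (SE 0.16, adjusted p = 0.017), Ifit2, which binds foreign RNA, by 0.97 (SE 0.22, adjusted p = 0.038), and Irgm1, an immunity GTPase gene, by 0.71 (SE 0.18, adjusted p = 0.047). In each, all 4 hydroxyurea arrays lay above all saline arrays. The call of Eif2ak2 was lost without hydroxyurea 1 (adjusted p = 0.056), hydroxyurea 4 (0.065) or saline 1 (0.053). That of Ifit2 was lost without hydroxyurea 1 (adjusted p = 0.10), hydroxyurea 3 (0.07), hydroxyurea 4 (0.085), saline 2 (0.099), saline 3 (0.069) or saline 4 (0.078). That of Irgm1 was lost without any single array but hydroxyurea 2, with adjusted p from 0.061 to 0.12. With the slide as an added term in limma, Ifit2 (0.05, just over the threshold before rounding) and Irgm1 (0.065) missed the threshold. Both also missed it with normexp (0.054 and 0.071).

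Of 8 measured class II genes limma called 0 (also 0 at an unadjusted p of 0.05; median 0.36), and H2-Eb1 stood at 1.47 (SE 0.66, adjusted p = 0.20 with limma).

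**Figure D4:**
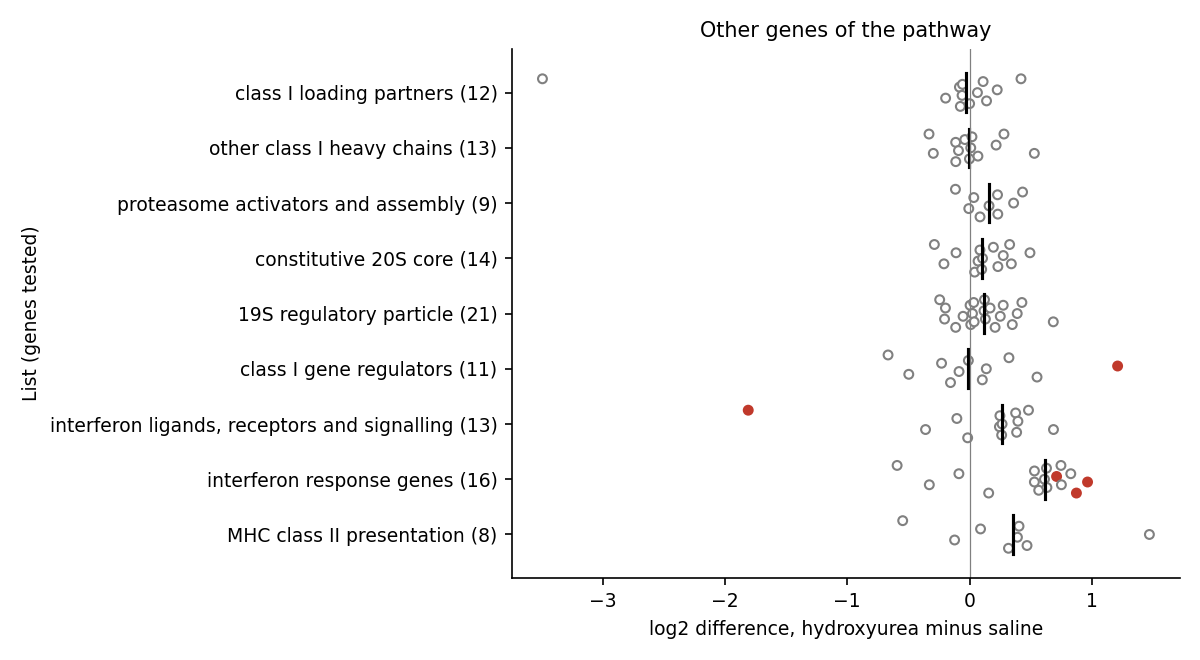
Log2 difference between hydroxyurea and saline embryos (x axis) for each measured gene of 9 lists (y axis), with the list median as a bar and genes called by limma filled in red. Called genes are Irf1, Ifnk, Eif2ak2, Ifit2 and Irgm1, and the list of interferon response genes has a median of 0.62.

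The named genes whose signals over all 8 arrays were most like those of Tap1 by Pearson r were Inka2 (0.99), Parp10, Ampd2, Calhm2 and 2410018L13Rik (0.98 each). These values hold the difference between the groups as well as the spread inside them. Inka2 was higher in hydroxyurea embryos by 2.71 (SE 0.22) and its other probe by 2.50, Calhm2 by 1.61 (SE 0.14), Parp10 by 1.48 (SE 0.14) and 2410018L13Rik by 0.72 (SE 0.15). Ampd2 stood at 0.44 and its other probe at 0.01.

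**Figure D5:**
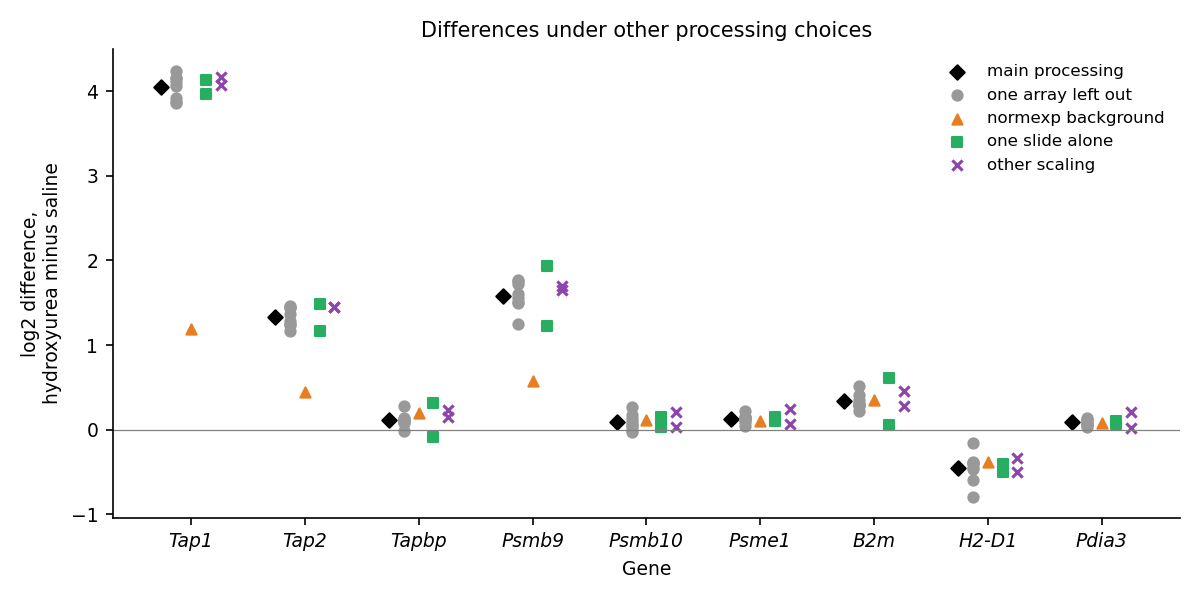
Log2 difference between hydroxyurea and saline embryos (y axis) for the 9 measured genes under the main processing (diamonds), with 1 array left out (circles), with normexp (triangles), on either slide (squares) and with other scalings (crosses). With normexp, Tap1 stood at 1.19, Psmb9 at 0.57 and Tap2 at 0.45, and the other genes lay between -0.79 and 0.61 under every choice shown.

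The differences of Tap1, Tap2 and Psmb9 were smaller with normexp, which changed the signal column, the background method and the offset together. Tap1 then stood at 1.19 (SE 0.17), Psmb9 at 0.57 (SE 0.18) and Tap2 at 0.45 (SE 0.16). A filter that asks for all 8 arrays to be well above background leaves these 3 genes out. With 1 array left out Tap1 stayed between 3.86 and 4.24, Tap2 between 1.16 and 1.47 and Psmb9 between 1.25 and 1.77.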

How the data were processed

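Scanner files as deposited give Cy3 spot intensity from Agilent Feature Extraction 11.5.1.1, per the submitters' processing notes and the file headers, with background subtracted and no scaling between arrays. The authors' deposited table holds log2 values that are centred on each probe's median; how these were normalized and the probes selected is not stated in the header or labels. Spots marked as outliers were left out (151 to 315 per array), log2 processed signals were averaged over a probe's spots, and the array's 75th percentile over the 55681 probes was subtracted. A probe counted as well above background on an array where at least 50% of its spots did. Probes so on at least 4 of 8 arrays were kept (30677), with 82 left out for a missing array, and the brightest probe stood for its gene (23121 features, 14631 of them named genes). RefSeq accessions gave 26582 probes a symbol in a GRCm38.p6 table. limma 3.58.1 in R 4.3.3 (lmFit, eBayes, no covariate) gave two-sided p-values, with Benjamini-Hochberg adjustment across every feature, and SEs. The script was tested on simulated data. No array pair correlated below 0.96. Pathway genes were named where called (up to 6 per list), otherwise the 2 lowest p, beside fixed names, the 2 genes on each side of the Tap block and the 5 genes most like Tap1. Members and lists were chosen with earlier results of these data known.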

Additional observations from a re-analysis of the deposited data

Results flagged for a closer look

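Single arrays stood far from the other 3 of their group in 3 of the 82 groups checked (41 genes in both groups), where chance gives about 1 in 20. Ifnk was -5.32 in hydroxyurea 2, against -5.96 to -5.90 in the other hydroxyurea arrays, all of them not well above background, and -3.31 in saline 4, against -4.28 to -4.12 in the other saline arrays. Psme2, the partner gene of Psme1 in the proteasome cap, was 4.63 in hydroxyurea 2, against 5.16 to 5.20 in the other hydroxyurea arrays.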

How the results depend on the processing

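No paired analysis was possible because the labels carry no replicate numbers. All 9 measured members kept the sign of their difference under every alternative that gave a value (a filter on all 8 arrays gave none for Tap1, Tap2 and Psmb9), except Tapbp and Psmb10, which kept it in 15 of 17. Tap1 (1.19), Tap2 (0.45) and Psmb9 (0.57) moved with normexp, here run on median spot signals with an offset of 50 added before the log. Pdia3 moved to 0.20 with median centring. The part of each processing change in these shifts was not tested. Median centring shifts the median of all features from 0.04 to 0.158. Quantile normalization put 947 of 1847 calls higher, against 642 of 1429. Features called numbered 1429, but 615 without a filter on dim probes, 59 within slide 1 and 3 within slide 2, where fewer arrays were fitted, and 524 to 3739 with 1 array left out. Pathway genes called numbered 5, but 2 without the filter, 3 with the slide as a block, 0 within either slide, and 2 to 14 with 1 array left out.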
